A study of Mus musculus with 32 samples.

Results

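Aphidicolin (APH), a compound that blocks the replicative DNA polymerases, was given for 4 h at 1 µM to wtATMIN cells, a wild-type mouse embryonic fibroblast line. Their gene expression was set against that of the same line given the solvent DMSO for 4 h. The comparison uses 4 of the 32 RNA sequencing samples of the study, 2 with APH and 2 with DMSO, chosen by line, treatment and time alone. The wtATMIN line is the control of a line deleted for ATMIN, a zinc finger protein that binds the DNA damage kinase ATM. Set beside it were the same line at 24 h, the other wild-type line (wtATM) at 4 h and the ATMIN knock-out line at 4 h, each with 1 µM APH or DMSO and 2 samples a group. All cultures were grown in complete DMEM with fetal calf serum. Whether the 2 samples in a group are separate cultures is not stated in the labels, so each p-value measures only the spread between such samples, which may be technical. The line is 1 line, and what it shows cannot be told apart from what wild-type fibroblasts in general would show.

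Replication forks stop when the polymerases are blocked, and the exposed single-stranded DNA is known to activate the kinases ATR and CHK1, which hold back CDK1 and entry into mitosis. In a normal cycle, E2F factors drive the genes of DNA replication in late G1 and S phase, and a later wave of mitotic genes is switched on in G2 through promoter elements called CHR and CCAAT boxes. The mRNA of the replication-dependent histones is made and kept only while DNA is being copied. Fibroblasts carry these programs beside their matrix, lipid and growth factor programs.

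The 4 libraries held 15385821 to 17254967 reads in genes, within the range of 9321329 to 21020662 over all 32. The logged values of the 2 replicates correlated at 0.9919 and 0.9929 across genes, which are not independent replicates. Mitochondrial genes took 1.16% to 1.27% of the reads. Gm42418, a locus that overlaps ribosomal RNA sequence, stood at 33932.9 CPM (the usual depth-scaled read count, taken over the normalised library size) in APH replicate 1 and at 13776.2 to 16321.7 CPM in the other 3 libraries. The part of this difference in the results was not tested. Leaving that library out is given beside the results it changed.

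At 4 h, 2773 of 18484 tested genes (15%) differed between APH and DMSO at an adjusted p under 0.05 by edgeR's quasi-likelihood test (p-values adjusted after Benjamini and Hochberg), here called genes that rose or fell. Of these, 1341 rose (7.25% of all tested) and 1432 fell (7.75%). Most of the changes were small. The median log2 fold change was 0.40 among the genes that rose and -0.45 among those that fell, and 101 rising and 189 falling genes changed by at least 1 on the log2 scale. In all but 1 of the called genes, the 2 APH values lay on 1 side of both DMSO values. The test that called them used the same values, so this is largely set by that choice. The share over all tested genes was not counted. The count was 1432 without APH replicate 1, 1717 without APH replicate 2, 2722 without DMSO replicate 1 and 1408 without DMSO replicate 2.

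Cyp1a1 had the largest rise among the called genes with a mean log2 CPM of at least 2 over the 4 libraries and no clone name. It encodes a cytochrome P450 enzyme known as a target of the aryl hydrocarbon receptor, and lies on chromosome 9 at 57687928 to 57703824 (GRCm38). Its level was 3.15 and 2.66 CPM with DMSO and 23.2 and 21.8 CPM with APH. Both APH libraries lay far above both DMSO libraries, with a log2 fold change of 2.95 ± 0.245 (standard error of the fit; adjusted p = 1.5e-09), or 7.74-fold. Sema7a, a membrane-anchored semaphorin on chromosome 9 at 57940112 to 57962865, had 9.26 and 10.3 CPM with DMSO and 47.2 and 49.7 CPM with APH. The groups did not overlap, and the log2 fold change was 2.31 ± 0.122 (adjusted p = 2.7e-16). Rgs16, which limits signalling by G protein-coupled receptors, went from 4.57 and 3.19 to 14.5 and 14.8 CPM (log2 fold change 1.92 ± 0.155). Has2, a hyaluronan synthase, and Ptgs2, the inducible cyclooxygenase of prostaglandin synthesis, rose by 1.64 and 1.58 on the log2 scale. Ptgs2 had 121 and 106 CPM with DMSO and 324 and 355 CPM with APH. The rest of the 12 largest rises, between 1.33 and 1.52 on the log2 scale, were Tbc1d30, Odaph, Mmd, the serotonin receptor Htr2a, the phosphatase Ptpn22, Ccbe1 and Pmepa1. DESeq2 gave no adjusted p for Tbc1d30.

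Linker histone genes were among the largest falls. Hist1h1c, a linker histone gene on chromosome 13 at 23738808 to 23740367, had 10.9 and 15 CPM with DMSO and 3.16 and 2.59 CPM with APH, and fell by 2.18 ± 0.18 on the log2 scale (adjusted p = 3.6e-11). H1f0, the linker histone of slowly dividing cells, on chromosome 15 at 79028450 to 79030504, had 299 and 337 CPM with DMSO and 76.6 and 81.0 CPM with APH. Both APH values were about 4.03-fold below the DMSO values (log2 fold change -2.01 ± 0.0712, adjusted p = 2.3e-21). Gas1, named for its high level in growth-arrested cells, fell from 119 and 149 to 41.3 and 45 CPM (log2 fold change -1.64 ± 0.115). Bmp4, a secreted bone morphogenetic protein, fell from 28.9 and 34.1 to 10.7 and 10.8 CPM (log2 fold change -1.55 ± 0.113). Dio3, a deiodinase that inactivates thyroid hormone, had 27.3 and 40.5 CPM with DMSO and 7.83 and 10.6 CPM with APH. Its DMSO replicates were further apart than its APH replicates, and the groups did not overlap (log2 fold change -1.88 ± 0.161). The other 7 of the 12 largest falls were Hist1h2ap, Barx2, the ligand Wnt16, the desmosome-linked protein Ppl, the matrix protein Ogn, Arhgef39 and the glutamate transporter Slc1a3. Their log2 fold changes were -2.03 to -1.54. This ranking keeps the same abundance limit as that of the rises, so less abundant genes with larger falls are not in it.

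**Figure D1:**
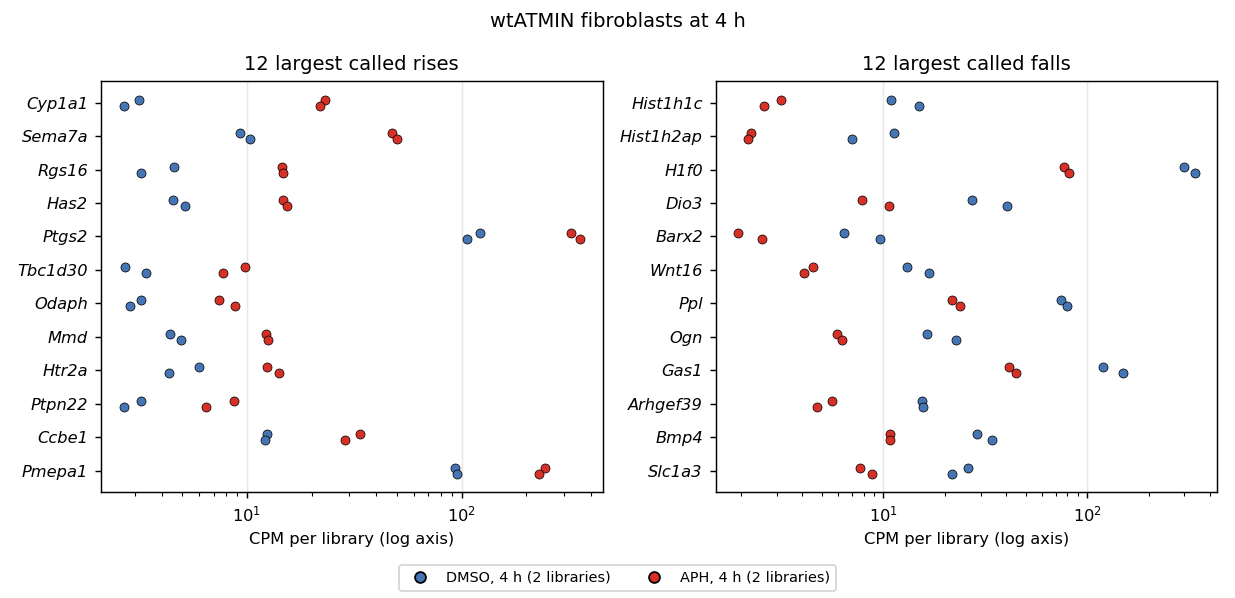
Level of the 12 genes with the largest called rises and the 12 with the largest called falls at 4 h in wtATMIN, in CPM on a log axis. Only genes with a mean log2 CPM of at least 2 were ranked. Each point is 1 library, blue for DMSO and red for APH. In each of the 24 genes, which were chosen by these same values, the 2 APH points lie on 1 side of both DMSO points.

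**Figure D2:**
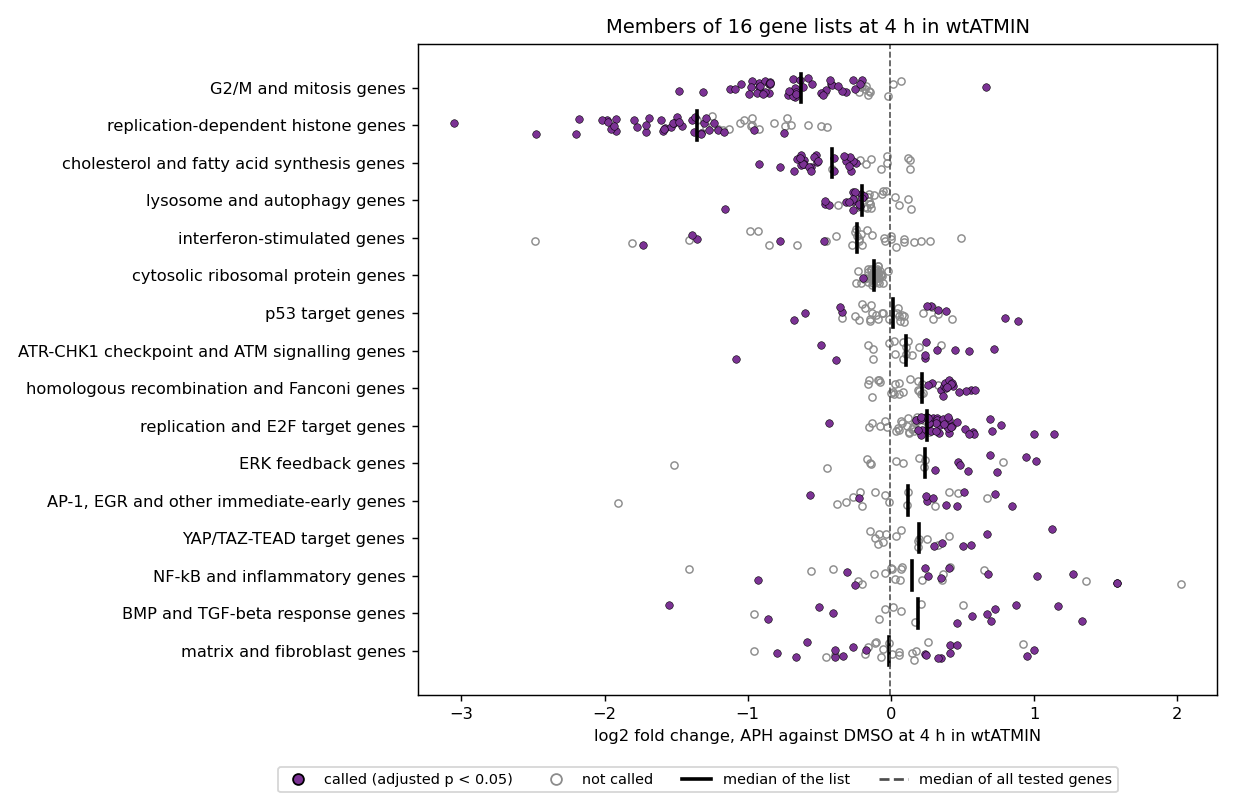
Log2 fold change of each tested member of 16 gene lists, APH against DMSO at 4 h in wtATMIN. Filled points are members that passed the test, open points did not, black bars are list medians and the dashed line is the median of all tested genes (-0.0077). The G2/M list lies almost wholly below 0 and the replication and E2F list mostly above it.

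The mitotic program was lower after 4 h of APH. Of 58 tested G2/M and mitosis genes, 45 fell, 1 rose and 12 did not pass the test, against 7.75% and 7.25% of all tested genes, and the list's median log2 fold change was -0.63 against -0.0077 for all genes. In bulk RNA, fewer cells in a phase of the cycle and less of an mRNA per cell cannot be told apart. Leaving out any 1 of the 4 libraries moved the count of falling members by less than 1.5 times.

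The promoters of these genes are shown because the list fell together and because its genes are known for CHR elements, searched as TTTGAA, and CCAAT boxes. RefSeq promoter windows on GRCm38.p6, from 250 bases before to 50 after a transcript start, were found for 48 of the 58 genes, as 51 windows. TTTGAA on either strand was present in 36 of the 51 windows (70.6%), in 31 of the 43 windows of the falling members (72.1%) and in 17.9% of all 32851 windows. CCAAT on either strand was present in 70.6% of the list's windows, 72.1% of those of the falling members and 37.4% of all windows. A match is a description of the letters and not a bound site. The 4 stretches below are from genes with both kinds of match. In them, capitals mark TTTGAA and CCAAT (or ATTGG, its other strand), and all run 5′ to 3′ along the gene's strand. Cdc20 is at chr4:118437334-118437406 (minus strand), Prc1 at chr7:80294404-80294461 (plus), Kif23 at chr9:61946782-61946816 (minus) and Ccnb2 at chr9:70421535-70421731 (minus).
Cdc20: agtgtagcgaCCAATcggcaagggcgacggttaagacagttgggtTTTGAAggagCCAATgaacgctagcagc
Prc1: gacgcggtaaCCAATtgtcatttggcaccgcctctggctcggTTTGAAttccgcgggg
Kif23: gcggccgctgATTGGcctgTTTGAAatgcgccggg
Ccnb2: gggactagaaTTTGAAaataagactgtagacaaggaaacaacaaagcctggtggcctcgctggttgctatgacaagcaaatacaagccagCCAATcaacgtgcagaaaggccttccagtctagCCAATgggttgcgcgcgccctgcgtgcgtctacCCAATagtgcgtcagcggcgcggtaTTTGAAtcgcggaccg

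The matches were not spread evenly over the windows. In bases 1 to 25 after the start, 13 of the 51 windows of the list (25.5%) had a TTTGAA, against 1.31% of all windows, and in the 25 bases before the start 13.7% had one, against 1.38%. Between 250 and 151 bases before the start the list had a match in 1.96% of its windows per 25 bases, beside 1.90% to 2.12% of all windows. Bases 150 to 126 and 125 to 101 before the start held matches in 5.88% and 9.8% of its windows, against 1.88% and 1.83%.

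**Figure D3:**
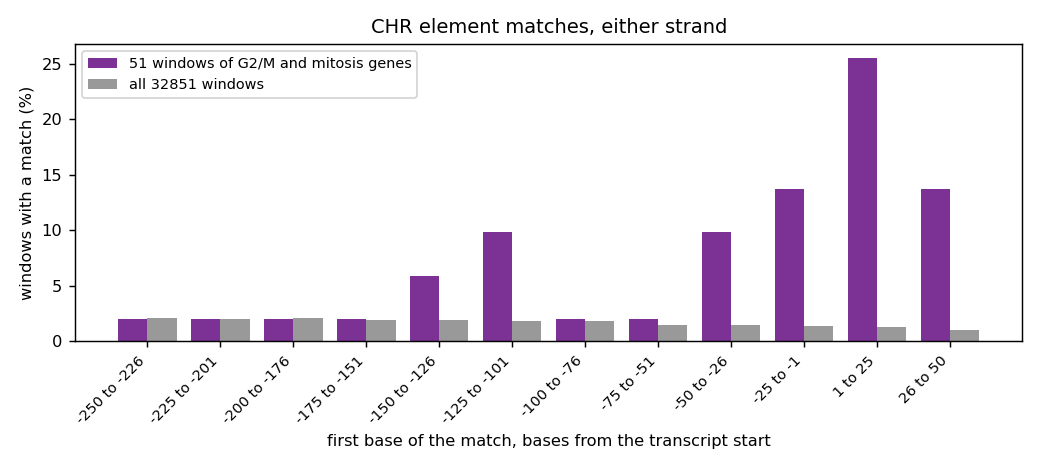
Share of promoter windows with a TTTGAA on either strand, by distance of the match's first base from the transcript start in bins of 25 bases. Purple bars are the 51 windows of the G2/M list and grey bars all 32851 windows. The purple bars reach 25.5% in bases 1 to 25 while the grey bars stay between 0.971% and 2.12%.

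Among the mitotic cyclins, CDK1 and its phosphatases, 8 of 8 fell. Ccnb1, the main mitotic partner of CDK1, had 212 and 203 CPM with DMSO and 110 and 108 CPM with APH (log2 fold change -0.92 ± 0.0623, adjusted p = 1.8e-13). Ccnb2 fell by 0.85, and the CDK1-activating phosphatases Cdc25c and Cdc25b by 0.92 and 0.61. Cdk1 itself and Ccna2, which acts from S phase on, moved less, by -0.27 and -0.20. All 8 regulators of anaphase and cytokinesis fell as well. Cdc20, which activates that complex in mitosis, had 233 and 273 CPM with DMSO and 89.2 and 92.6 CPM with APH. It was the most changed member, with a log2 fold change of -1.48 ± 0.0707 (adjusted p = 2.4e-17). Prc1, which bundles the midzone microtubules, fell by 0.85.

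Kinases were less uniform, with 4 of 9 lower. Plk1, which drives mitotic entry and spindle assembly, had 156 and 173 CPM with DMSO and 66.7 and 65.2 CPM with APH (log2 fold change -1.32 ± 0.0692). Aurka, a kinase of the spindle poles, fell by 0.97, while Aurkb and Bub1 stood at -0.20 and -0.21 and did not pass the test (adjusted p = 0.063 and 0.21). Of 10 kinetochore and passenger genes 9 fell, among them the centromeric histone Cenpa (-1.09), the motor Cenpe (-0.98) and Birc5 (-0.43). Bub1b, which delays anaphase until chromosomes are attached, had 226 and 216 CPM with DMSO and 99.0 and 104 CPM with APH (log2 fold change -1.12 ± 0.0632). Of 14 kinesins and spindle genes 13 fell, with Kif20a at -0.84 and Kif23 at -0.67. Transcription factors, condensins and topoisomerase stood apart from the other roles, with 3 of 9 lower and 1 higher. Foxm1, a transcription factor of mitotic genes, was at -0.17 (adjusted p = 0.051) and Top2a, which untangles DNA, at -0.18 (adjusted p = 0.091). Mybl2, a transcription factor that is itself an E2F target, had 126 and 133 CPM with DMSO and 205 and 205 CPM with APH. It was the 1 member that rose (log2 fold change 0.67 ± 0.0821, adjusted p = 2.0e-07).

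Genes of G1/S and DNA replication were higher. Of 68 tested replication and E2F target genes, 40 rose, 1 fell and 27 did not pass the test, against 7.25% and 7.75% of all tested genes, and the median log2 fold change was 0.25. The count of rising members moved by less than 1.5 times without any 1 of the 4 libraries. These changes were smaller than those of the mitotic genes.

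Promoters of 4 of the rising members with a match are shown. They are given because the list moved together and its genes are known for E2F sites. The letters searched on both strands were TTTGGCGC, TTTCCCGC and TTTCGCGC, which can overlap each other on opposite strands. At least 1 of them was present in 22 of the 69 windows of the list's genes (31.9%), in 14 of the 44 windows of the rising members (31.8%) and in 1.84% of all windows. Ccne1, Rrm2 and Dck, which also rose, had no match in their windows. Capitals mark these letters or their other strand (GCGGGAAA for the second form and GCGCGAAA for the third, which overlaps the first form in Mcm6), and a match is again a description only. Cdc6 is at chr11:98908003-98908160 (plus strand), Gins3 at chr8:95633508-95633568 (plus), Cdc25a at chr9:109875502-109875588 (plus) and Mcm6 at chr1:128359696-128359825 (minus).
Cdc6: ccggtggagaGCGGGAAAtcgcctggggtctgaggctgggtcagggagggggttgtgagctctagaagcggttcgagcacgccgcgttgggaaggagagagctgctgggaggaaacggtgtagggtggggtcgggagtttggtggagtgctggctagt
Gins3: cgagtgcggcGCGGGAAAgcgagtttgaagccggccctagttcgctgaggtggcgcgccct
Cdc25a: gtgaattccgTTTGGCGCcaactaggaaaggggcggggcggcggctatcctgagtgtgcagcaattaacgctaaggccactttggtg
Mcm6: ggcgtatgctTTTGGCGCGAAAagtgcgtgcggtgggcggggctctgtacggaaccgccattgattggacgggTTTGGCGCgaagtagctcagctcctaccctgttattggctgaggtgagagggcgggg

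The G1/S cyclins and the E2F family had the most uniform rise, 9 of 11. Ccne1, a cyclin that activates CDK2 at the start of S phase, had 29.6 and 30.9 CPM with DMSO and 66.5 and 67.1 CPM with APH. Both APH libraries were about 2.21-fold above both DMSO libraries (log2 fold change 1.14 ± 0.0778, adjusted p = 2.2e-13). Its relative Ccne2 rose by 1.00, the ubiquitin ligase subunit Skp2 by 0.57, E2f1 by 0.35 and the phosphatase Cdc25a by 0.34. Among origin licensing and firing genes 11 of 19 rose and 1 fell. Cdc6, which loads the MCM helicase, had 65.3 and 68.4 CPM with DMSO and 109 and 107 CPM with APH (log2 fold change 0.69 ± 0.0728). The helicase subunits Mcm3 to Mcm7 rose by 0.25 to 0.32, whereas Mcm2 stood at 0.17 and did not pass the test. Dbf4, the activator of the CDC7 kinase, was the 1 falling member, with 91.5 and 82.6 CPM with DMSO and 63.5 and 65.6 CPM with APH (log2 fold change -0.43 ± 0.0853).

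The replicative polymerases are the targets of APH, and their genes moved little. Pole, the catalytic subunit of polymerase epsilon, had 143 and 124 CPM with DMSO and 182 and 171 CPM with APH, and rose by 0.40 ± 0.0688 (adjusted p = 6.0e-05). Pola1 and Pold1, the catalytic subunits of polymerases alpha and delta, had log2 fold changes of 0.21 ± 0.130 and 0.12 ± 0.105 and did not pass the test (adjusted p = 0.33 and 0.52). Over all 23 polymerase and fork genes 11 rose, among them the sliding clamp Pcna (0.46) and the flap nuclease Fen1 (0.37). For deoxynucleotide supply 5 of 8 rose. Rrm2, the regulated subunit of ribonucleotide reductase, had 173 and 182 CPM with DMSO and 290 and 315 CPM with APH (log2 fold change 0.77 ± 0.0583), and Dck, a salvage kinase, rose by 0.70. Tk1, the S-phase thymidine kinase, stood at -0.15 and did not pass the test. The chromatin replication genes had 4 of 7 rising, including Dnmt1 (0.26), the maintenance DNA methyltransferase.

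Some checkpoint genes moved, in both directions. Of 24 ATR-CHK1 and ATM signalling genes, 7 rose and 3 fell, against 7.25% and 7.75% of all tested genes. Most of the 7 rises were lost without APH replicate 1, without APH replicate 2 or without DMSO replicate 2. The rise of the list therefore rested on single libraries, and the genes below are described singly. Clspn, the adaptor through which ATR activates CHK1, had 99.8 and 102 CPM with DMSO and 170 and 163 CPM with APH, a log2 fold change of 0.72 ± 0.0645. H2afx, the histone variant phosphorylated around DNA breaks, went the other way, from 91.0 and 110 CPM to 46.1 and 49.0 CPM (log2 fold change -1.08 ± 0.0934). Chek1 had 28.4 and 25.8 CPM with DMSO and 22.5 and 25.9 CPM with APH, and its groups overlapped. Atm had 73.4 and 59.6 CPM with DMSO and 99.4 and 94.8 CPM with APH, and rose by 0.55 ± 0.138 (adjusted p = 0.0086). That call was lost without APH replicate 1 (adjusted p = 0.077) and without DMSO replicate 2 (adjusted p = 0.17). Atmin had 26 and 25 CPM with DMSO and 32.9 and 30.9 CPM with APH. It rose by 0.32 ± 0.0977 (adjusted p = 0.020), a call that no fit without 1 of the 4 libraries kept, with adjusted p from 0.050 to 0.19. Dynll1, the dynein light chain whose gene ATMIN is known to regulate, stood at -0.13 and did not pass the test (adjusted p = 0.21). Hus1 (0.44) and Chek2 (-0.49) were called too, and both calls were lost without APH replicate 2 (adjusted p = 0.074 and 0.11) and without DMSO replicate 2 (adjusted p = 0.25 and 0.10).

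Repair genes of homologous recombination shared the direction of the replication genes. Of 37 homologous recombination and Fanconi genes 16 rose, against 7.25% of all tested genes, and the other 21 did not pass the test. The median log2 fold change was 0.22. The rising members numbered 9, 10 and 9 without APH replicate 1, APH replicate 2 and DMSO replicate 2. Exo1, a nuclease that resects DNA ends, had 38.4 and 33.6 CPM with DMSO and 53.1 and 54.9 CPM with APH (log2 fold change 0.59 ± 0.0752). Xrcc2, Brca1 and Rad54l, which promote strand exchange, rose by 0.56, 0.52 and 0.44. The recombinases and mediators had 12 of 23 rising and the Fanconi proteins 4 of 14.

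Histone genes were lower as a group. Of 59 tested replication-dependent histone genes, 39 fell, against 7.75% of all tested genes, and the other 20 did not pass the test. All 59 log2 fold changes were below 0, between -3.05 and -0.44, with a median of -1.35. The count was 21 without APH replicate 1, 22 without APH replicate 2 and 19 without DMSO replicate 2. The library kit named in the labels selects polyadenylated RNA, and most mRNA of these genes ends in a stem-loop and no poly(A) tail. Its part in the levels was not tested. Near-identical copies can share reads, so values of single genes are uncertain. By role, 14 of 15 H2A, 11 of 14 H2B, 7 of 13 H4, 4 of 12 H3 and 3 of 5 linker histone genes fell. Hist3h2a had 5.66 and 7.10 CPM with DMSO and 1.64 and 1.59 CPM with APH (log2 fold change -1.98 ± 0.216). Hist1h2ak had 4.44 and 3.96 CPM with DMSO and 0.729 and 0.765 CPM with APH, and no overlap between the groups (log2 fold change -2.48 ± 0.359, adjusted p = 4.1e-06). Among 9 replication-independent histone genes 4 fell, H1f0, H1fx (-0.83), H2afv (-0.64) and H2afy2 (-0.35). The call of H2afy2 was lost without APH replicate 1.

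Lipid synthesis genes were lower. Of 37 cholesterol and fatty acid synthesis genes, 27 fell and the other 10 did not pass the test, against 7.75% of all tested genes, with a median log2 fold change of -0.41. These genes are known targets of the SREBP transcription factors. Scd2, a fatty acid desaturase, had 1754 and 1643 CPM with DMSO and 854 and 939 CPM with APH. It fell by 0.92 ± 0.0635 on the log2 scale (adjusted p = 2.8e-13), and its relative Scd1 fell by 0.63. Of 20 mevalonate and sterol enzymes 17 fell. Hmgcs1, which makes the precursor of mevalonate, had 275 and 261 CPM with DMSO and 161 and 187 CPM with APH, and Sqle, the squalene epoxidase, fell by 0.63. Among the regulators, Insig1, which retains SREBP in the endoplasmic reticulum and is itself an SREBP target, fell by 0.78. Idi1, at -0.14, and Fasn, at 0.13, did not pass the test.

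Hmgcs1 is shown as the 1 falling member with an exact match to TCACCCCAC, letters of a sterol regulatory element, searched on both strands. The letters were present in 1 of the 23 windows of the falling members (4.35%) and in 0.551% of all windows. The stretch is at chr13:119690204-119690360 (plus strand), with the match in capitals.
Hmgcs1: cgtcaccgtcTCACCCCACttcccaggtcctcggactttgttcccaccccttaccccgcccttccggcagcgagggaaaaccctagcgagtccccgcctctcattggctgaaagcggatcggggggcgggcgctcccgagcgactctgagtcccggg

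Lysosome and autophagy genes were lower by small amounts, with 16 of 36 falling, against 7.75% of all tested genes. The other 20 did not pass the test, and the median was -0.21. The count was 7 without APH replicate 1 and 6 without DMSO replicate 2. Gla, a lysosomal galactosidase, had 16.2 and 16.2 CPM with DMSO and 7.53 and 7.01 CPM with APH (log2 fold change -1.16). Grn, Sqstm1 and Ctsd fell by 0.43, 0.46 and 0.26.

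The p53 target genes had a median near 0 at 4 h. Of 36 members 6 rose (16.7%) and 4 fell (11.1%), against 7.25% and 7.75% of all tested genes, and the median was 0.016, a sign that turned to -0.022 without DMSO replicate 1. Rising members numbered 3 without APH replicate 1, 2 without APH replicate 2 and 3 without DMSO replicate 1. Cdkn1a, the CDK inhibitor p21, had 13.4 and 17.2 CPM with DMSO and 18.5 and 18.8 CPM with APH (log2 fold change 0.28 ± 0.157, adjusted p = 0.25). Mdm2, which degrades p53, had 72.5 and 70.6 CPM with DMSO and 74.4 and 76.4 CPM with APH (log2 fold change 0.08 ± 0.0652, adjusted p = 0.50). Neither passed the test, and Trp53, at 0.10 ± 0.0583 (adjusted p = 0.29), did not either. Pmaip1, which encodes the apoptosis inducer NOXA, rose by 0.89 and the metabolic regulator Tigar by 0.80. Ephx1, an epoxide hydrolase, fell by 0.68 and Gtse1, which peaks in G2, by 0.34.

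Signalling genes of growth and inflammation held several of the larger rises. Of 20 YAP/TAZ-TEAD target genes 6 rose, against 7.25% of all tested genes, and the other 14 did not pass the test. Ccn2, a secreted matrix-associated growth regulator, had 298 and 298 CPM with DMSO and 604 and 692 CPM with APH (log2 fold change 1.12 ± 0.0728, adjusted p = 7.2e-14). Ccn1, its relative, had 501 and 557 CPM with DMSO and 797 and 891 CPM with APH. In both genes the APH libraries lay above the DMSO libraries, and F3, the tissue factor gene (0.56), and Ankrd1 (0.51) rose as well. The promoter of Ccn1 is shown because it is the rising member with the letters of a TEAD site, ACATTCC, searched on both strands. These were present in 1 of the 6 windows of the rising members, in 5 of 18 windows of the whole list (27.8%) and in 3.85% of all windows. The stretch is at chr3:145649976-145650099 (minus strand).
Ccn1: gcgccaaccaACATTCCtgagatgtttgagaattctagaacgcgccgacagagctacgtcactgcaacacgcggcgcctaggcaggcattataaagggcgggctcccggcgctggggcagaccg

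Of 19 ERK feedback genes 8 rose and the other 11 did not pass the test. This list and the next stand beside 7.25% of all tested genes rising and 7.75% falling. Dusp6, a phosphatase that switches off ERK, had 15.8 and 16.4 CPM with DMSO and 28.9 and 33.1 CPM with APH (log2 fold change 0.94 ± 0.0969). Phlda1, Dusp5 and the ETS factor Etv4 rose by 0.74, 0.69 and 0.49. Among 25 immediate-early genes 8 rose and 2 fell. Klf2, Ier3 and Jun rose by 0.85, 0.73 and 0.46, whereas Bhlhe40, which is also a clock factor, fell by 0.57. Both counts of rising members depended on single libraries. They were 5 for ERK feedback without APH replicate 1, DMSO replicate 1 or DMSO replicate 2, and 5, 4 and 4 for the immediate-early genes without APH replicate 1, APH replicate 2 and DMSO replicate 1.

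Among 32 tested NF-kB and inflammatory genes 9 rose and 3 fell, with 5 rising without APH replicate 2. The cytokine Il11 rose by 1.58, and Lif, a cytokine of the same family, had 20.2 and 16.6 CPM with DMSO and 39.8 and 48.8 CPM with APH (log2 fold change 1.27 ± 0.110). Tnfaip3, which dampens NF-kB signalling, rose by 0.68. Cxcl1, a neutrophil chemokine, had 43.7 and 47.0 CPM with DMSO and 21.6 and 26.0 CPM with APH, and fell by 0.93 ± 0.0953 (adjusted p = 4.0e-09). Beside these counts, 7.25% of all tested genes rose and 7.75% fell. In prostaglandin and hyaluronan synthesis 4 of 15 genes rose, against the same 7.25%, and the other 11 did not pass the test. Besides Ptgs2 and Has2 these were Ptgs1 (0.57) and Cd44, the hyaluronan receptor, which had 429 and 380 CPM with DMSO and 700 and 690 CPM with APH (log2 fold change 0.78 ± 0.0683).

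Of 35 interferon-stimulated genes 5 fell (14.3%, against 7.75% of all tested genes) and the other 30 did not pass the test. Stat2, part of the interferon-activated transcription factor, fell from 23.7 and 21.3 to 12.8 and 13.5 CPM (log2 fold change -0.77 ± 0.0963). Ifit3 (-1.73) and Ifit1 (-1.35) were low in every library, from 1.09 to 5.97 CPM. The count of falling members was 3 without APH replicate 1.

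BMP and TGF-beta response genes moved both ways, with 8 of 20 higher and 4 lower. This list and the matrix list stand beside 7.25% of all tested genes rising and 7.75% falling. Pmepa1, a feedback inhibitor of TGF-beta signalling, had 92.6 and 95.2 CPM with DMSO and 244 and 229 CPM with APH (1.33 ± 0.0772). Grem1, a secreted BMP antagonist, rose by 0.87, while the ligand genes Bmp4 and Tgfb3 fell by 1.55 and 0.86. Matrix and fibroblast genes were divided too, with 9 of 35 higher and 8 lower. Tnc, the matrix protein tenascin C, rose by 1.00 and Timp3, an inhibitor of matrix proteases, by 0.95. The collagen genes Col3a1 and Col1a2 fell, Col3a1 from 84.6 and 83.7 to 47.4 and 49.7 CPM (log2 fold change -0.79 ± 0.0772) and Col1a2 by 0.58. The 8 falling matrix genes were 5 without APH replicate 1 and 5 without DMSO replicate 2.

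The remaining lists are read against 7.25% of all tested genes rising and 7.75% falling. Integrated stress and unfolded protein response genes had 2 of 30 higher, Hspa5 (0.48) and Mthfd2 (0.29), and 5 lower (16.7%), led by Ddit4 (-0.88) and Nupr1 (-0.67). Of these 5, 3 fell without APH replicate 1 and 2 without DMSO replicate 2, and the call of Mthfd2 was lost without DMSO replicate 1. NRF2 target genes had 2 of 19 higher and 6 lower (31.6%), the glutathione transferase Gstm1 (-0.82) first, with 1 lower without APH replicate 1 or without DMSO replicate 2. Glycolysis and hypoxia-inducible genes had 2 of 25 higher and 7 lower (28%), with 2, 3 and 4 lower without APH replicate 1, APH replicate 2 and DMSO replicate 2. Circadian clock genes had 2 of 18 higher and 6 lower (33.3%), with Tef at -0.41, Nfil3 at -0.45 and Dbp at -1.43, and 3 lower without DMSO replicate 2, where Dbp lost its call. Heat shock chaperones had 2 of 15 lower (13.3%), Hspb8 (-0.25) and Bag3 (-0.21), and both calls were lost in 3 or more of the 4 fits without a library. Of 38 ribosomal protein genes 1 fell and 37 did not pass the test, all 38 fold changes were below 0, and 12 fell without DMSO replicate 1. Of 13 tested long genes at common fragile sites, the loci that break when APH slows replication, Exoc4 alone fell (-0.22, adjusted p = 0.039), a call kept under 2 of 10 alternatives.

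The cells were checked against marker genes. Of 10 fibroblast markers, 5 were lower with APH, where 7.75% of all tested genes fell. The summed level of the 10 was 8599 and 9571 CPM with DMSO and 6615 and 7041 CPM with APH. Markers of other cell types were summed in the same way. The summed level lay between 10.5 and 16.6 CPM for 9 epithelial genes, 11.9 and 13.1 CPM for 9 blood and immune genes, 4.63 and 5.80 CPM for 8 endothelial genes, 0.364 and 1.03 CPM for 5 adipocyte genes and 1.03 and 1.93 CPM for 5 germ cell genes. Skeletal muscle genes summed to 38.1 and 38.6 CPM with DMSO and 50.1 and 45.2 CPM with APH, with Myod1, Myog and Ckm at 0 reads in all 4 libraries. Of 5 tested neural genes 1 was higher and 2 were lower, beside 7.25% and 7.75% of all tested genes. The 8 neural genes summed to 507 and 511 CPM with DMSO and 578 and 581 CPM with APH, with Rbfox3 and Olig2 at 0. Adgre1, Cd3e, Hbb-bs and Lyz2 of the blood list, Krt5 of the epithelial list and Tie1 and Emcn of the endothelial list were also at 0.

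After 24 h more genes of the same line differed than at 4 h. At 24 h 5331 genes (28.8%) differed between APH and DMSO, 2505 higher (13.6%) and 2826 lower (15.3%). No library is shared between the 2 times. Of the 1341 genes that rose at 4 h, 328 (24.5%, or 13.1% of those rising at 24 h) rose again and 214 (16%) fell. Of the 1432 that fell at 4 h, 438 (30.6%, or 15.5% of those falling at 24 h) fell again and 279 (19.5%) rose. More of the genes called at both times kept their direction than turned. Subtracting the response at 4 h from that at 24 h gave a difference that passed the test for 3431 genes (18.6%), 1685 with a higher 24 h response (9.12%) and 1746 with a lower one (9.45%). With library sizes alone as the scaling the split was 2210 and 1080. Among the genes called at 4 h it was called for 588 of the 1341 that rose, 565 of them with a lower 24 h response, and for 704 of the 1432 that fell, 648 of them with a higher one. The difference uses the 4 h libraries that chose these genes, so its direction among them is partly set by that choice.

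Most mitotic genes had a higher response at 24 h, beside 9.12% of all tested genes with a higher one and 9.45% with a lower one. Of the 58 G2/M genes, 51 had a higher and 1 a lower response at 24 h than at 4 h, with a median difference of 0.89 on the log2 scale, and 43 were higher with APH than with DMSO at 24 h. Cdc20 stood at 196 and 182 CPM with DMSO and 196 and 189 CPM with APH at 24 h, where the groups met (log2 fold change 0.03). Kif20a rose at 24 h, from 310 and 307 to 437 and 432 CPM. Of the replication and E2F genes 33 of 68 had a lower response at 24 h and 1 a higher one. Ccne1 still rose at 24 h, by 0.26, Cdc6 was at -0.02 and Mcm6 fell by 0.56. For the replication-dependent histones 21 of 59 had a higher response at 24 h, and their 24 h median was -0.026. Hist1h1c went from 20.1 and 19.5 CPM with DMSO to 30.9 and 28.2 CPM with APH at 24 h.

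The p53 target genes were higher at 24 h, beside 13.6% of all tested genes. Of 36, 31 rose and 1 fell at that time, and 23 had a higher response than at 4 h. Cdkn1a had 6.72 and 5.59 CPM with DMSO and 32.3 and 33.3 CPM with APH at 24 h (log2 fold change 2.4), and Mdm2 had 62.1 and 62.6 CPM with DMSO and 210 and 221 CPM with APH (1.79). Interferon-stimulated genes had a higher response at 24 h in 24 of 35 members, and 29 of them were higher with APH at that time. Lysosome genes had a higher response at 24 h in 20 of 36 members, and in 13 without 4 h DMSO replicate 2. The sterol genes kept their direction in the members named, with Scd2 at -0.73, Insig1 at -0.76 and Hmgcs1 at -0.79 at 24 h. Cyp1a1 at 24 h was at 0.659 and 0.668 CPM with DMSO and 0.481 and 0.827 CPM with APH, and Sema7a rose by 0.66. DMSO levels differed between the times as well, with Col1a2 at 1924 and 2113 CPM at 4 h and 358 and 346 CPM at 24 h, and Ogn at 16.3 and 22.7 CPM at 4 h and 357 and 389 CPM at 24 h. The part of this in the differences between times was not tested.

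**Figure D4:**
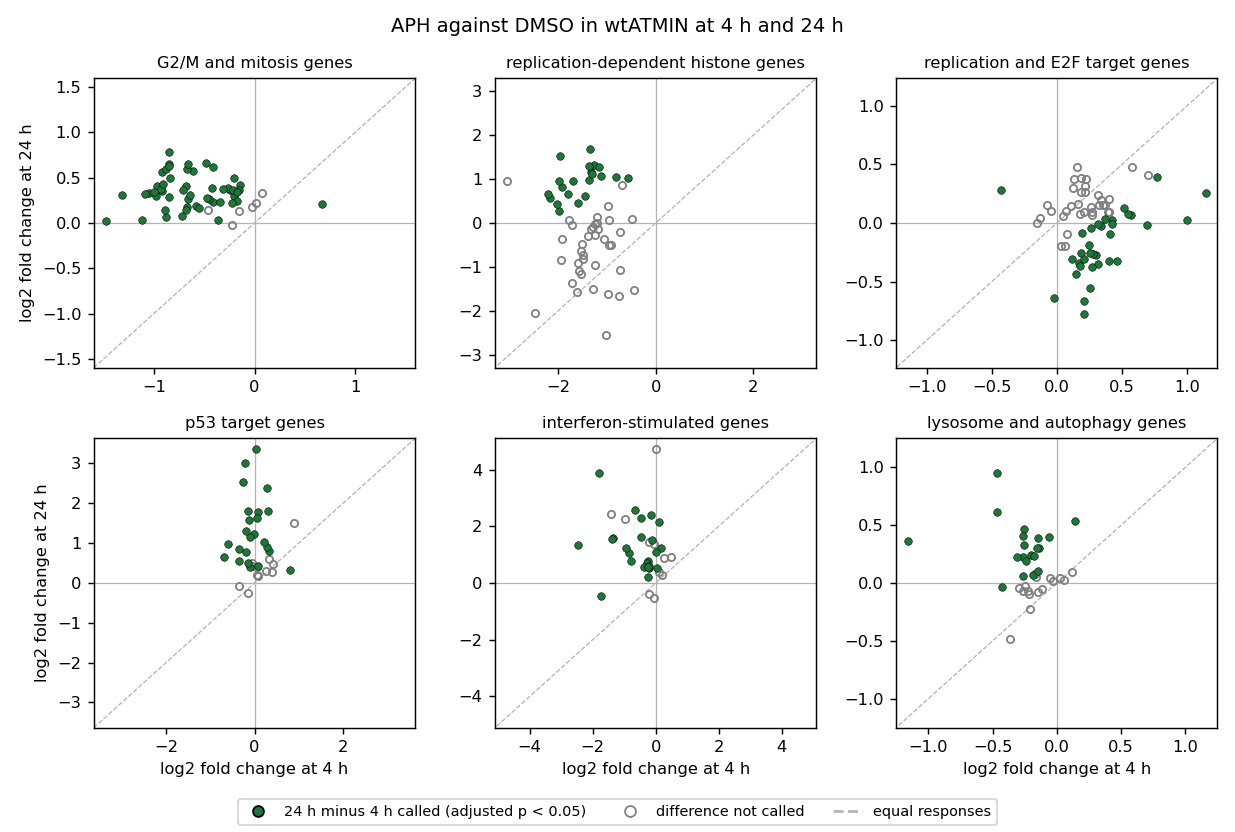
Log2 fold change of APH against DMSO in wtATMIN at 4 h (x axis) and at 24 h (y axis) for the members of 6 gene lists, 1 point per gene. Filled points are genes whose difference between the times passed the test, and the dashed line marks equal responses. The G2/M genes lie almost wholly left of 0 at 4 h and mostly above 0 at 24 h. The p53 genes lie near 0 at 4 h and mostly above it at 24 h.

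At 4 h the wtATMIN response was set beside those of the other lines, which share no library with it. In wtATM 1031 genes (5.58%) were called, 520 higher (2.81%) and 511 lower (2.76%). In the ATMIN knock-out line 3768 genes (20.4%) were called, 1753 higher (9.48%) and 2015 lower (10.9%). Gm42418 stood at 41270.8 and 16808.3 CPM with DMSO and at 22989 and 27474.1 CPM with APH in wtATM. In the knock-out line it stood at 14145.7 and 14497.4 CPM with DMSO and at 22989.7 and 34324.9 CPM with APH. Its part in the counts of called genes was not tested. Of the genes that rose in wtATMIN, 241 (18%) also rose in wtATM, which is 46.3% of the wtATM rises, and 856 (63.8%) also rose in the ATMIN knock-out line, 48.8% of its rises. Of those that fell, 300 (20.9%, and 58.7% of the wtATM falls) also fell in wtATM and 926 (64.7%, and 46% of the knock-out's falls) in the knock-out line. Called genes with the opposite direction were 9 and 15 against wtATM and 6 and 9 against the ATMIN knock-out line, among those that rose and fell in wtATMIN.

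The counts of 3 falling groups were set side by side, with no test between lines. The G2/M genes had 45 of 58 falling in wtATM and 53 in the ATMIN knock-out line, the replication-dependent histones 52 and 44 of 59, and the sterol and fatty acid genes 29 and 21 of 37, where 2.76% and 10.9% of all tested genes fell. Of the replication and E2F genes, 7 of 68 rose in wtATM and 50 in the knock-out line, where 2.81% and 9.48% of all tested genes rose. Cdc20 fell from 182 and 197 to 77.0 and 83.5 CPM in wtATM and from 219 and 210 to 65.5 and 71.4 CPM in the knock-out line. H1f0 fell from 658 and 716 to 154 and 149 CPM in wtATM and from 330 and 339 to 102 and 101 CPM in the knock-out line.

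The difference between the responses of wtATMIN and wtATM passed the test for 451 genes (2.44%), 192 with a higher response in wtATMIN (1.04%) and 259 with a lower one (1.4%). The count was 164 to 290 when any 1 of 7 of the 8 libraries was left out, and 547 without wtATMIN DMSO replicate 1. With library sizes alone as the scaling, 93 were higher and 302 lower. Matrix genes held 10 lower and 2 higher responses among 35, led by Col3a1 (-0.82), and the BMP and TGF-beta list 3 lower ones among 20, Bmp4 (-1.19), Tgfb3 (-0.96) and Tgfbi (-0.50). Of these 10, 3 to 6 were called without wtATMIN APH replicate 1, wtATMIN DMSO replicate 2 or any 1 of the wtATM libraries. Replication and E2F genes held 11 higher responses among 68, at 0.34 to 0.52 on the log2 scale, among them Rrm2 (0.42), Dck (0.42) and Pcna (0.34), and 2 to 7 without any 1 of the 8 libraries. Has2 had a difference of 1.00 ± 0.17, although its level in wtATM was higher in both groups, at 26.5 and 23.4 CPM with DMSO and 40.9 and 36.5 CPM with APH. Gas1 had 45.3 and 46.5 CPM with DMSO and 35 and 37.2 CPM with APH in wtATM, where it did not pass the test, and the difference was -1.29. Cxcl1 rose in wtATM, from 5.77 and 8.49 to 11.5 and 12.4 CPM, and fell in wtATMIN, with a difference of -1.65 ± 0.17 (adjusted p = 1.3e-07). Dio3 had no read in any of the 4 wtATM libraries at 4 h, so no fold is given for it there.

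The difference between wtATMIN and the ATMIN knock-out line passed the test for 124 genes (0.671%), 60 higher (0.325%) and 64 lower (0.346%) in wtATMIN. Without wtATMIN APH replicate 1, APH replicate 2 or DMSO replicate 2, or without knock-out APH replicate 2, DMSO replicate 1 or DMSO replicate 2, the count was 54 to 71. The NF-kB list had 7 lower responses in wtATMIN among 32, among them Cxcl1, Ccl7 (-1.94), Ccl2 and Lif (-0.98). Cxcl1 rose in the knock-out line from 17.5 and 18.3 to 37.5 and 35.2 CPM, against its fall in wtATMIN (difference -1.95 ± 0.14, adjusted p = 9.7e-12). Ccl2, a monocyte chemokine, rose in the knock-out line from 17.1 and 16.8 to 75.7 and 77.1 CPM. In wtATMIN it had 7.52 and 11.7 CPM with DMSO and 10.7 and 15 CPM with APH, where the groups overlapped. Gjb2, a gap junction connexin, rose in both lines, from 77.0 and 68.4 to 152 and 169 CPM in wtATMIN and from 5.38 and 4.85 to 28.3 and 29.3 CPM in the knock-out line (difference -1.35 ± 0.13). Sema7a rose less in wtATMIN than in the knock-out line, where it reached 99.0 and 117 CPM (difference -1.11 ± 0.17). Ccng2, an atypical cyclin known for its high level in resting cells, fell in wtATMIN from 16.1 and 13.5 to 6.92 and 8.18 CPM and in the knock-out line from 30.5 and 28.9 to 6.48 and 6.44 CPM (difference 1.23 ± 0.21). The G2/M list had 4 higher responses in wtATMIN, that is smaller falls, at Cenpf (0.88), Nusap1 (0.69), Cdc25c (0.54) and Kif23 (0.38), and 0 to 2 without any 1 of the 8 libraries other than wtATMIN DMSO replicate 1. These 2 lines are 1 line each, so the deletion and other differences between the lines cannot be told apart.

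**Figure D5:**
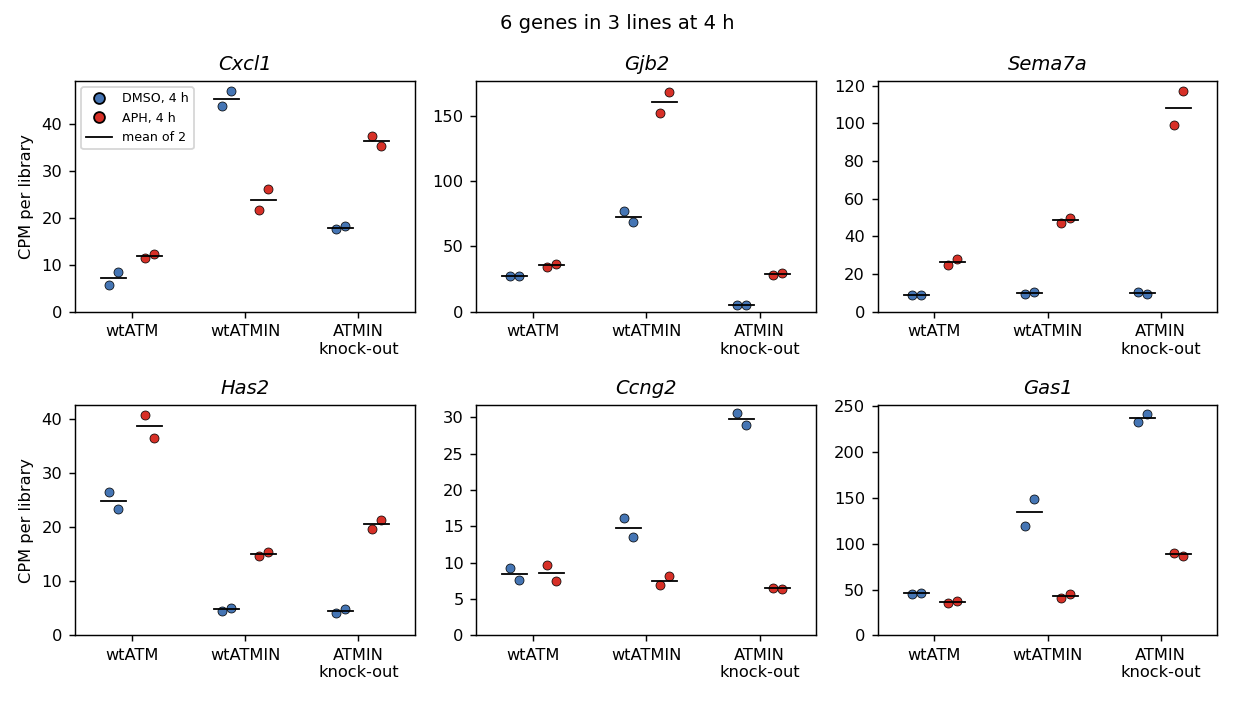
Level of 6 genes at 4 h in 3 lines (wtATMIN, the ATMIN knock-out and wtATM), in CPM per library, with bars at the mean of 2. Cxcl1 was lower with APH than with DMSO in wtATMIN and higher in the other lines, and Ccng2 and Gas1 fell in the ATMIN knock-out line and in wtATMIN but not past the test in wtATM.

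The authors' deposited table of the same comparison covers 18748 genes and calls 1975 of them at an adjusted p under 0.05, 993 higher and 982 lower. Of those calls in the authors' deposited table, 1840 (93.2%) were also called in the same direction here, and these make up 66.4% of the calls made here.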

How the data were processed

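RNA sequencing counts of 39017 genes in 32 samples were used as deposited; the table's treatment codes were read as APH and DMSO. Per the submitters' processing notes, the tools were Bowtie2 2.4.0, TopHat2 2.0.13 and DESeq2 1.6.3 and the build mm10. The counting tool, its use of strand and the annotation release are not given in the sources used here, so overlapping and antisense genes cannot be told apart. The authors' deposited table of the comparison gives log2 fold changes and an adjusted p-value per gene, and was used only for the closing count. In 10 such tables, 120 columns of the authors' normalised values were not used. Gene symbols came from GENCODE M21 for 37607 genes and from the authors' tables for 207, and 1203 had none.

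Counts were filtered (filterByExpr, 18484 genes kept), scaled by TMM and tested with edgeR 4.0.16 (limma 3.58.1, R 4.3.3) by the robust quasi-likelihood test over all 32 samples in 16 groups, with 16 residual degrees of freedom, a common biological coefficient of variation of 0.0643 and Benjamini-Hochberg adjustment over all tested genes. A call is an adjusted p under 0.05. CPM were taken over the TMM-normalised library size. Differences between responses were contrasts in the same fit. With 2 samples a group, precision comes mainly from the pooled spread. On simulated counts for the 4 h comparison, 80% of 1.5-fold and 91% of 2-fold changes among 200 genes were recovered, with 11 of 18073 other genes called. The 200 genes were drawn from those with a mean above 2 CPM. The counts followed the negative binomial spread of the fit, without the gene-wise spread that the quasi-likelihood test adds. No change in less abundant genes and no difference between libraries beyond that negative binomial spread was simulated, so the recovery does not cover these.

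The members and gene lists were chosen with earlier results of these data known, so counts of list members are descriptions. Named genes were fixed by rule: 10 genes tied to ATM, ATMIN, p53 and the polymerases, the 12 largest called changes each way with a mean log2 CPM of at least 2, up to 4 members per list by smallest p and 2 of opposite direction, and 5 genes at each end of each difference with the same minimum level. That mean was taken over the 4 wtATMIN libraries at 4 h, and clone names were left out of both rankings. Others named are list members given as examples, chosen after their values were seen. Alternatives were another scaling, library size alone, no filter, a replicate block, the compared groups alone, DESeq2 1.42.0 and leaving out each library. Promoter windows came from RefSeq GRCm38.p6. Figures were drawn with Python 3.11.15 and matplotlib 3.10.9. Some results are not reported here because the items they name are withheld.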

Additional observations from a re-analysis of the deposited data

Results flagged for a closer look

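Responses to APH that differed between lines or times by the test of the difference itself are listed here as values, each as the log2 difference in edgeR's quasi-likelihood test.

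Between wtATMIN and wtATM at 4 h, 451 genes differed. The largest higher responses in wtATMIN were Creb5 (1.15), the nucleoside transporter Slc29a2 (1.14), the aminopeptidase Anpep (1.02), Has2 (1.00) and Zfp809 (0.93). The largest lower ones were Prl2c2 (-1.86), Hid1 (-1.75), Cxcl1 (-1.65), C1qtnf1 (-1.57) and the cadherin Cdh6 (-1.54). Has2, Slc29a2, Cxcl1 and C1qtnf1 kept their call under all 14 alternatives. Anpep and Hid1 kept it under 12 of 14, Cdh6 under 12 of 13, and Creb5, Zfp809 and Prl2c2 under 8 of 14.

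Between wtATMIN and the ATMIN knock-out line at 4 h, 124 genes differed. The largest higher responses in wtATMIN were Map3k9 (1.6), Ccng2 (1.23), Mmd (1.14), the calcium channel gene Cacna1a (1.14) and Fat4 (1.06). The largest lower ones were Dio3 (-2.10), Cxcl1 (-1.95), Ccl2 (-1.76), Prr5 (-1.37) and Gjb2 (-1.35). Dio3 had 3.57 and 3.43 CPM with DMSO and 4.48 and 3.59 CPM with APH in the knock-out line. Map3k9 kept its call under 3 of 13 alternatives, Cacna1a under 8 of 14 and Prr5 under 8 of 13, while Ccng2, Fat4, Cxcl1, Ccl2 and Gjb2 kept theirs under all 14 and Mmd and Dio3 under all 13 that gave a value.

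Between 24 h and 4 h in wtATMIN, 3431 genes differed. The largest higher responses at 24 h were Trp53inp1 (3.24), a p53 target, Apol9b (2.85), Hist1h1c (2.76), the chemokine Cxcl10 (2.56) and Inka2 (2.47). The largest lower ones were Cyp1a1 (-2.99), Gjb2 (-2.63), the serotonin receptors Htr1b (-2.50) and Htr2a (-2.18), and Tbc1d30 (-2.38). Gjb2 rose at 4 h and fell at 24 h, from 40.0 and 42.6 to 15.4 and 14 CPM. All 10 kept their call under the alternatives that gave them an adjusted p.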

How the results depend on the processing

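None of the 126 called genes that the rule named changed direction under the alternatives run, other named genes were not followed through them, and the scalings moved the median of all genes by less than 0.1 on the log2 scale. Of these 126, 120 to 126 kept their call under the other settings and 108 to 118 without 1 library; DESeq2 gave an adjusted p for 125 and kept all of them. The 2773 calls at 4 h became 1408 to 2722 without 1 library, 2197 with the compared groups alone and 2556 with DESeq2. The difference from wtATM, 451 genes, became 164 to 547 without 1 library and 395 (93 higher, 302 lower) with library size alone. The difference from the ATMIN knock-out, 124 genes, became 54 to 156 without 1 library, 225 with no filter on low counts and 170 with DESeq2. The difference between times, 3431 genes, became 2532 to 3216 without 1 library and 2210 higher and 1080 lower with library size alone. The cause of these shifts was not tested. The replicate numbers do not pair the samples (correlations of same-numbered deviations from -0.086 to 0.07), and with a replicate block 2432 genes were called at 4 h, and 305, 93 and 3066 for the differences from wtATM, from the knock-out and between times. With 2 samples a group, a left-out library leaves 1 sample, whose spread is assumed to be that of the other groups. Medians of the p53, prostaglandin, stress response, heat shock and matrix lists lie near 0 and changed sign under some settings. Depth limits the histone genes and others at a few CPM.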

Other observations

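Some further gene groups were chosen after their values at 4 h in wtATMIN had been seen, so their counts are descriptions, beside 7.25% of all tested genes rising and 7.75% falling at 4 h. Of 7 tested genes of the aryl hydrocarbon receptor and its known targets, 5 rose. Beside Cyp1a1 these were the receptor's repressor Ahrr, from 2.25 and 1.6 to 4.74 and 5.95 CPM (log2 fold change 1.48), Tiparp (0.99), Cyp1b1 (0.64) and Nqo1 (0.39), whose call was lost without APH replicate 1 and without DMSO replicate 2. Ahr itself stood at -0.19 and did not pass the test. At 24 h the group's median log2 fold change was -0.05. Of 7 tested ligands of the EGF receptor family 4 rose, Areg (1.05), Ereg (0.77), Tgfa (0.75) and Hbegf (0.61), the last from 73.0 and 68.7 to 109 and 107 CPM.

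Of 9 factors that act in the transcription, processing or decay of histone mRNA 4 rose, while the histone genes fell. They include Slbp, which binds the stem-loop of that mRNA, from 82.3 and 84.7 to 104 and 104 CPM (log2 fold change 0.32). Of 9 D-type cyclins and CDK inhibitors 6 fell, among them Cdkn2b (-0.99), Ccnd1 (-0.46) and Cdkn1b (-0.35). The CDK inhibitor gene Cdkn1a, given above among the p53 targets, is not in this group and did not pass the test. Of 30 ribosome assembly factors 18 rose at 4 h with a median of 0.26, and 18 fell at 24 h with a median of -0.23, where 15.3% of all tested genes fell. Heatr1, a factor of rRNA transcription and processing, rose from 120 and 105 to 164 and 149 CPM at 4 h and fell by 0.64 at 24 h.

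The response varied with gene length at both times, and the times were not compared by a test. Protein-coding genes up to 5 kb rose in 4.05% and fell in 11.4% of 1728 cases at 4 h (median log2 fold change -0.0749), and those of 100 to 200 kb in 11.6% and 6.87% of 1179 cases (median 0.0629). The shortest class includes histone genes such as Hist1h1c and H1f0, which fell, and their part in its counts was not tested. At 24 h the same classes rose in 11.1% and 8.06% and fell in 17.6% and 28.6%. Of 709 protein-coding genes over 200 kb, 8.46% fell and 10.3% rose at 4 h, while 44.4% fell and 2.68% rose at 24 h. The median log2 fold change of these genes was 0 at 4 h and -0.3889 at 24 h.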
